A study of Mus musculus with 26 samples.

Results

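The replication-dependent histone genes make the bulk of the histone proteins that package newly copied DNA. They were taken here as the protein-coding genes of the mouse annotation whose symbol begins with H2ac, H2bc, H3c, H4c or H1f followed by a digit, which gave 67 of 21887 protein-coding genes outside the mitochondrial genome. The rule used symbols only and no measured value. By family these were 10 linker histone H1 genes, 17 H2A genes, 16 H2B genes, 12 H3 genes and 12 H4 genes. The rule also takes in 2 replacement H1 genes, H1f0 and H1f10, whose expression is not tied to DNA replication, and 5 genes known from germ cells, H1f6, H1f7, H1f8, H2ac1 and H2bc1. The remaining 60 are replication-dependent in the usual sense.

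The series compared mouse progenitors without Ebf1, the transcription factor that starts the B cell programme, with cells driven from them toward the B lineage. Early-B cells were Ebf1-/- progenitors that received EBF1.ER, a fusion of EBF1 switched on by 4-hydroxytamoxifen, from the MigR1 retroviral vector, and then spent 2 days on OP9 stromal cells with SCF, FLT3-L, IL-7 and 4-hydroxytamoxifen. Ebf1-/- progenitors were the starting cells, and their culture before fixation is not stated in the labels used here, so EBF1 activity, vector, stroma and drug cannot be told apart. Each group had 2 samples immunoprecipitated with an antibody to H3K4me3 and 2 input DNA samples in the labels, and 1 peak list per group was used. A single list per group leaves no replicate check and no test, and the depth behind each peak is unknown. The labels used here state neither the age nor the strain of the animals.

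The labels were checked by peaks at marker genes. Of 8 B lineage genes, 8 were marked in Early-B cells and 5 in progenitors. Ebf1 itself, the gene the progenitors lack, was marked in both, and its −log10 p was 193.31 among Early-B peaks and 221.05 among progenitor peaks. Which part of it is deleted is not stated in the labels, so this peak does not check the deletion. Of 6 genes of OP9-type stroma, 6 were marked in Early-B cells and 2 in progenitors. Their −log10 p ran from 1.25 at Col3a1 to 35.0 at Sparc in Early-B cells, and was 1.51 at Col1a2 and 5.46 at Col1a1 in progenitors. Over all protein-coding genes, 61% had a peak in both lists, 8% in Early-B alone and 2.01% in progenitors alone. Of 4 T lineage genes, 3 had a peak in each list. Stromal cells carry the same histone genes, and their part in the Early-B values below was not tested. In bulk chromatin, fewer cells with a mark and less mark per cell cannot be told apart.

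H3K4me3 is trimethylation of lysine 4 on histone H3 and gathers around promoters that are active or held ready. Replication-dependent histone genes are short, have no introns and mostly sit in clusters, and their messenger RNAs end in a stem-loop that SLBP binds in place of a poly(A) tail. Their transcription is known to rise at entry into S phase through NPAT, which gathers at the clusters in histone locus bodies. Subtype-specific factors act beside it, such as HINFP at H4 promoters and OCT1 with its coactivator at H2B promoters. Progenitors and early B cells are both known as dividing cells.

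Promoter sequences, shown because the families are known for distinct promoter elements, came from RefSeq on build GRCm38.p6 and span 250 bases before to 50 bases after each annotated start. Of 67 members, 62 had an entry, with 63 promoters because H2bc6 has 2 starts. H2bc21, H2bc4, H4c14, H3c7 and H3c1 had no entry. In the 10 H4 promoters with the HINFP core GGTCCG, the 12 bases on either side of it were as follows, 5′ to 3′ on the gene's strand, with the core in capitals.
H4c11, chr13:21735004-21735033 (plus strand): ggttctcatttcGGTCCGcccgctacagta
H4c12, chr13:21750568-21750597 (minus strand): ggttctcatttcGGTCCGcccgccgcagta
H4c17, chr13:21811687-21811716 (plus strand): tgttttcactccGGTCCGcaagttccctat
H4c18, chr13:21832226-21832255 (minus strand): tgttttcactccGGTCCGcaagttccctat
H4c9, chr13:22041391-22041420 (minus strand): tgttttcactccGGTCCGcaagttccctat
H4c8, chr13:23531027-23531056 (plus strand): agtcttcaatcaGGTCCGaaaacactgcat
H4c6, chr13:23551697-23551726 (minus strand): agtcctctaaaaGGTCCGcattcgccatat
H4c4, chr13:23581509-23581538 (plus strand): ggttttcaaacaGGTCCGcattggtattat
H4c3, chr13:23698487-23698516 (minus strand): agttttcaaccaGGTCCGcagaaggcctat
H4c2, chr13:23756931-23756960 (plus strand): agttctcaaccaGGTCCGataagagcctat

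The HINFP core was found in 10 of 11 H4 promoters (90.9%), with H4c1 the exception, against 10.5% of all 21263 protein-coding promoters of the same length. The core always lay on the gene's own strand, and its first base was a median of 46 bases before the annotated start. In H4c2 it began 6 bases after the start. Outside H4, the core was in 1 of 10 H1, 0 of 17 H2A, 1 of 15 H2B and 1 of 10 H3 promoters.

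The octamer ATTTGCAT, the element known to be bound by OCT1, was found in 7 of 15 H2B promoters. These 7 stretches carry the octamer in capitals.
H2bc18, chr3:96269640-96269671 (plus strand): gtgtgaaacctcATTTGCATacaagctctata
H2bc14, chr13:21722007-21722038 (plus strand): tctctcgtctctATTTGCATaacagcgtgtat
H2bc12, chr13:22035779-22035810 (plus strand): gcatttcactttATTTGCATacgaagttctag
H2bc8, chr13:23571329-23571360 (plus strand): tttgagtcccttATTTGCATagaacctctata
H2bc6, chr13:23586018-23586049 (minus strand): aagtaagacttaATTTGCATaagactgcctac
H2bc3, chr13:23746632-23746663 (plus strand): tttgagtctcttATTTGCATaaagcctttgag
H2bc1, chr13:23934301-23934332 (minus strand): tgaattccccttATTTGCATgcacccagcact

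The octamer was thus in 46.7% of H2B promoters and in 6 of 17 H2A promoters, against 1.66% of all promoters, and in no H1, H3 or H4 promoter. H2A and H2B counts are not independent. Among members with a promoter entry, 9 H2A and H2B pairs start back to back within 164 to 281 bases (median 180). The windows of a pair overlap and so share letters. The octamer was in 3 of the 9 H2A promoters of these pairs. In all 7 H2B promoters the octamer was on the H2B strand.

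In H1 promoters the H1 box AAACACA, an element known from replication-dependent H1 genes, was found in 5 of 10 entries. It is in capitals in these stretches.
H1f5, chr13:21780724-21780754 (minus strand): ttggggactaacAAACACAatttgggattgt
H1f3, chr13:23554898-23554928 (plus strand): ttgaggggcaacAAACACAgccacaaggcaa
H1f4, chr13:23622655-23622685 (minus strand): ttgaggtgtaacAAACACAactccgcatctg
H1f6, chr13:23695685-23695715 (plus strand): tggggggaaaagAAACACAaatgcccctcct
H1f2, chr13:23738683-23738713 (plus strand): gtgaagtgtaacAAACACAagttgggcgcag

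All 5 boxes lay on the gene's strand, between 112 and 122 bases before the start. The 5 genes were H1f5, H1f3, H1f4 and H1f2, which are replication-dependent, and the testis gene H1f6. The box was in 6.15% of all promoters, in 2 of 17 H2A and 2 of 15 H2B promoters, and in no H3 or H4 promoter. No match was found for H1f1, the replacement genes H1f0 and H1f10, or the germ cell genes H1f7 and H1f8.

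Whole promoters are given for 1 gene each of H2B, H4 and H1, with the same element in capitals, to show where it sits relative to the start. Other boxes are not marked, and not every run holds them. Each run has its start site at base 251.
H2bc18, chr3:96269450-96269749 (plus strand): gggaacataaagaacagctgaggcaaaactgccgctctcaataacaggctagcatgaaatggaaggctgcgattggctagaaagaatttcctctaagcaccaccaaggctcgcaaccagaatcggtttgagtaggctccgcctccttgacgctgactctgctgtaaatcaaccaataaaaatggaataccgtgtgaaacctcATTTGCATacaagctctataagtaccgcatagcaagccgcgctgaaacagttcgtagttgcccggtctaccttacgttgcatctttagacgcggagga
H4c11, chr13:21734784-21735083 (plus strand): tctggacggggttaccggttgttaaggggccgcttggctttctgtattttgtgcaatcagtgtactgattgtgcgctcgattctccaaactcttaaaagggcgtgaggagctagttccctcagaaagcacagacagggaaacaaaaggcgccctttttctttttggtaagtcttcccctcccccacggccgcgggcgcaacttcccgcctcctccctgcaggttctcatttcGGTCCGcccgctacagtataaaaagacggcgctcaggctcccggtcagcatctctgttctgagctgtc
H1f2, chr13:23738557-23738856 (plus strand): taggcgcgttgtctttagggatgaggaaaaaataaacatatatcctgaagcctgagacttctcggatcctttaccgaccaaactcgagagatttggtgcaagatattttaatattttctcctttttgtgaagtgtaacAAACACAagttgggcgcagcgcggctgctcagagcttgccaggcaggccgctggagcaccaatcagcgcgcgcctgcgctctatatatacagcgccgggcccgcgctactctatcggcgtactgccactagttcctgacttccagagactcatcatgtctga

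The CCAAT box, bound by NF-Y, was in 17 of 17 H2A, 15 of 15 H2B and 10 of 10 H3 promoters. It was in 7 of 10 H1 and 3 of 11 H4 promoters, against 38.2% of all promoters. TATAAA was in 34 of 63 histone promoters (54.0%) and 12.6% of all promoters. Each motif was searched as spelled and as its reverse complement. The histone promoters had a median GC content of 45.7%, against 56.3% for all promoters. These matches describe letters in the window and do not show binding.

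**Figure D1:**
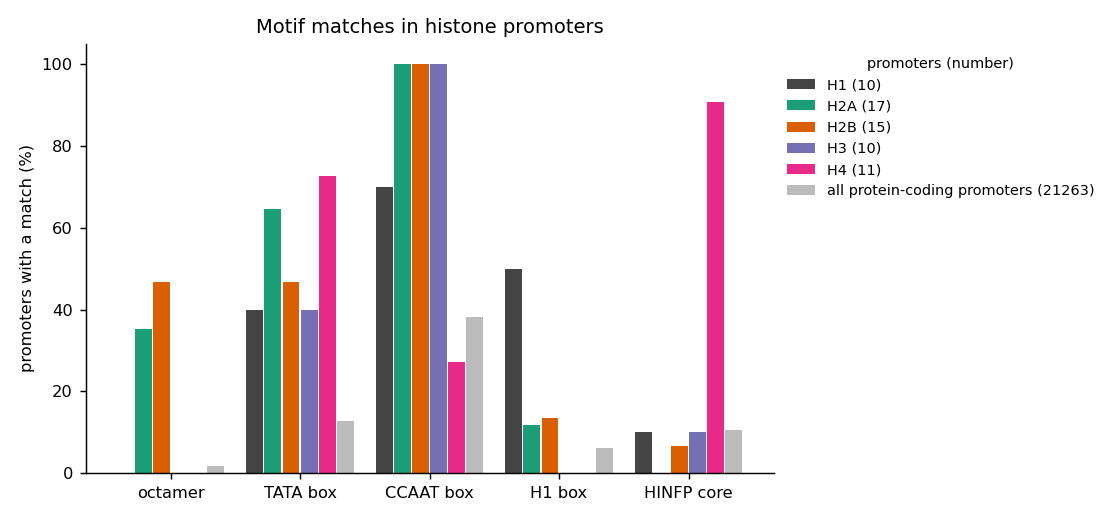
Share of promoters (percent, vertical axis) that hold each of 5 motifs on either strand, by histone family and for all protein-coding promoters, with the number of promoters in the legend. The HINFP core stands at 90.9% for H4, the octamer appears in H2A and H2B among the histone families, and the CCAAT box reaches 100% in H2A, H2B and H3.

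H3K4me3 peaks were at nearly every histone gene in both states. A gene was counted as marked when a peak overlapped its span extended by 1 kb on each side. By this rule 64 of 67 members had a peak in both lists (95.5%), against 61% of all protein-coding genes. A further 2 members, H1f8 and H1f10, had a peak in the Early-B list alone, against 8% of all genes. No member had a peak in the progenitor list alone, against 2.01% of all genes, and H1f7, a germ cell gene, had none. All 60 replication-dependent members and all H2A, H2B, H3 and H4 genes were in both lists. The authors' fold of histone peaks on chromosome 13 was 1.74 to 8.74 in Early-B cells and 1.64 to 17.0 in progenitors. The low ends were weak peaks inside the long annotated spans of H2bc6 and H2bc4. Apart from H2ac1 and H2bc1, each chromosome 13 member had a highest fold of at least 4.66 in Early-B cells and 9.91 in progenitors. At a fold of at least 10, 8 members were left in both lists, all on chromosome 3, against 41% of all genes. No member was then in Early-B alone, against 1.51% of all genes, and 51 were in progenitors alone, against 5.57%.

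Most genes this short carried no mark. Of 2583 protein-coding genes with a span of at most 2 kb, 13.8% had a peak in both lists and 81.6% had none. Cytosolic ribosomal protein genes, another set of highly used genes, had a peak in both lists for 82 of 84. The annotated start itself lay inside a peak for 59 of 63 histone promoters in each list (93.7%), while over all promoters the share was 55.6% for Early-B cells and 53.1% for progenitors. The 4 starts outside any peak were those of H1f6, H1f7, H1f8 and H1f10 in both lists.

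The genes do not each have a peak of their own. Members were covered by 37 Early-B peaks and 32 progenitor peaks, of 48054 Early-B and 31414 progenitor peaks in all. Of 66 members with an Early-B peak, 53 shared one with another member, and of 64 with a progenitor peak, 57 did. In both lists the most crowded peak held H2ac8, H2bc8, H2bc7, H2ac7 and H3c4, with a length of 7726 bp and a pileup of 46.47 in Early-B cells, against 8551 bp and 126.72 in progenitors. Pileup is the authors' read coverage at the peak, and it is ranked below only among peaks of its own list. The columns are those of a later MACS version's broad peaks, while the processing notes name MACS 1.4.3, so whether pileup and fold are averages over a peak or values at its summit is unsure. Pileups of both lists are given side by side, and no change is read from them, since how the lists were scaled is not stated. Counts of members are counts of genes and not of separate measurements.

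Read placement limits what can be said of single genes. Replication-dependent genes of one core histone family are known as similar copies, and their identity was not measured here. How reads that match several copies were assigned is not stated in the labels. H2bc6, with a span of 37 kb in the annotation, and H2bc4 have a long annotated form that reaches peaks of neighbours or weak peaks between genes. The weak peaks inside the H2bc6 span had pileups of 15.94 and 11.73 among Early-B peaks and 21.63 among progenitor peaks, and 1 of 11.82 lay inside the H2bc4 span among progenitor peaks.

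The clusters were formed by joining members less than 100 kb apart. On chromosome 13, the first group of 17 members lay at chr13:21715711-21833475, the second of 5 at chr13:22035122-22043658 and the third of 29 at chr13:23531044-23764412. H2bc1 and H2ac1 stood apart at chr13:23933725-23934913. A group of 10 members lay at chr3:96219885-96270192. H1f10, H1f8, H1f0 and H1f7 stood alone. Early-B peaks covered 35.8% of the first group and progenitor peaks 39.1%. The second group was covered for 80.3% by Early-B peaks and for 87.9% by progenitor peaks. In the third group Early-B peaks covered 30.5% and progenitor peaks 33.3%. The chromosome 3 group was covered for 55.7% by Early-B peaks and for 43.5% by progenitor peaks. These shares take every peak, at a histone gene or not, and only its part inside the group extended by 1 kb on each side.

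**Figure D2:**
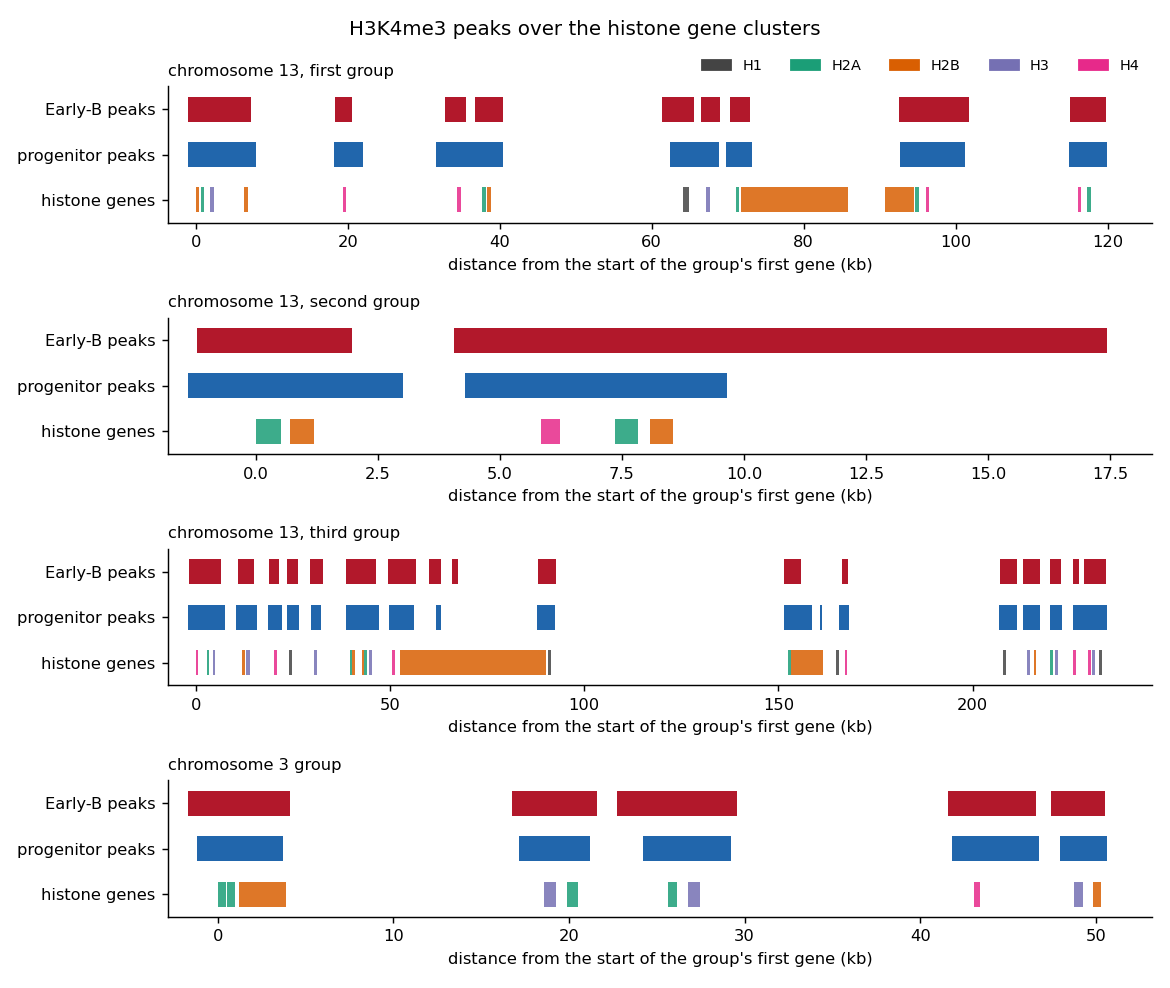
Early-B peaks (red), progenitor peaks (blue) and histone genes (coloured by family) in the 3 groups on chromosome 13 and the group on chromosome 3, along the distance in kb from the start of each group's first gene. Only peaks that overlap a histone gene extended by 1 kb are drawn. Other peaks in the groups are left out, and in the third group their pileups reach 66.76 in Early-B cells and 98.64 in progenitors. There 1 drawn progenitor peak spans H4c2, H4c1, H3c1 and H1f1 where the Early-B list has 2 peaks.

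Among all deposited peaks, histone genes ranked by median in the upper part of each list but, except on chromosome 3, below the typical marked gene. The median over members of the highest pileup stood at percentile 74.8 of Early-B peaks and at percentile 73.9 of progenitor peaks. Over all protein-coding genes with a peak in the list the median percentile was 86.6 for Early-B cells and 81.4 for progenitors. Over those with a span of at most 2 kb it was 83.3 for Early-B cells and 77.1 for progenitors. Over ribosomal protein genes it was 95.1 for Early-B cells and 92.0 for progenitors. Over the 10 members on chromosome 3 it was 87.3 for Early-B cells and 84.1 for progenitors, above all protein-coding genes in both lists. The upper rank of the members as a set rests on weak peaks in the lists. Of these lists, 33.2% for Early-B cells and 33.4% for progenitors have q above 0.05. Where −log10 p had to reach 10, the members' median percentile was 37.3 for Early-B cells and 42.2 for progenitors, in the lower part of each list. The same value was not computed for all protein-coding genes, so this drop cannot be called particular to the members. As a set, histone peaks had low pileup for their length, though most chromosome 3 peaks did not. Among peaks of 4 to 10 kb, the 18 histone peaks of the Early-B list had a median pileup of 55.8 against 103.65 for all 4145, and the 21 of the progenitor list had 110.72 against 147.42 for all 2724. On chromosome 3, Early-B peaks of that length at H2ac21, H3c15 and H4c14 had 129.53, 109.35 and 109.05, above the 103.65. That at H2ac18 had 96.43. Progenitor peaks at H2ac21, H2ac18 and H3c15 had 165.48, 157.82 and 155.99, above the 147.42, and that at H4c14 had 108.39. The median widest peak at a member was 4674 bp in Early-B cells and 5264 bp in progenitors. Over all genes it was 3036 bp in Early-B cells and 2734 bp in progenitors.

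By median pileup the chromosome 3 group ranked above the chromosome 13 groups, by more in the Early-B list. Its 5 Early-B peaks had pileups of 129.53 at H2ac21, H2ac20 and H2bc21, 109.35 at H3c15 and H2ac19, 96.43 at H2ac18 and H3c14, 109.05 at H4c14 and 108.06 at H3c13 and H2bc18. The 5 progenitor peaks had pileups of 165.48 at H2ac21, H2ac20 and H2bc21, 155.99 at H3c15 and H2ac19, 157.82 at H2ac18 and H3c14, 108.39 at H4c14 and 125.44 at H3c13 and H2bc18. The 28 Early-B peaks of the 3 chromosome 13 groups reached at most 62.92, at H1f2, so the groups did not overlap. Of the 25 progenitor peaks there, 9 exceeded the lowest chromosome 3 peak, with a highest pileup of 136.95 at H2bc9 and H3c7, so the groups overlapped.

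Medians of pileup were 109.05 on chromosome 3 and 44.5 on chromosome 13 in the Early-B list, a ratio of 2.45. In the progenitor list they were 155.99 on chromosome 3 and 100.91 on chromosome 13, a ratio of 1.55. On the authors' fold enrichment, which sets the signal against a background, the ratios were 1.69 for Early-B peaks and 1.58 for progenitor peaks, nearer to each other than on pileup. The highest member pileups of each list were those of H2ac21, H2ac20 and H2bc21, at percentile 91.3 in Early-B cells and 86.4 in progenitors. H4c14, the only H4 gene on chromosome 3, was at percentile 87.3 of the Early-B list and 74.3 of the progenitor list.

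**Figure D3:**
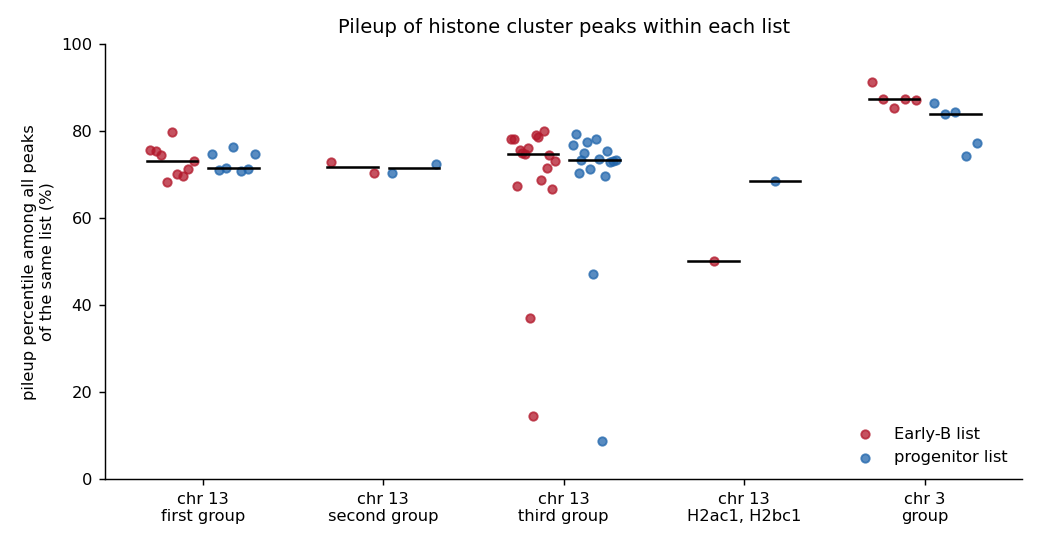
Percentile of pileup among all peaks of the same list (vertical axis, percent) for each histone peak, by group of genes, with Early-B peaks in red to the left of progenitor peaks in blue and the median as a line. Early-B peaks on chromosome 3 stand above all other histone peaks of that list, while progenitor peaks there at H4c14 (74.3%) and at H3c13 and H2bc18 (77.2%) lie among those of chromosome 13, and the H2ac1 and H2bc1 peak lies at 50.2% among Early-B peaks and 68.5% among progenitor peaks.

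The background that goes with these values also differed by chromosome in the Early-B list. Dividing pileup plus 1 by fold gives a background plus 1, if the caller added 1 to both and took both at the same place, and this implied background was 8.41 to 10.0 at the chromosome 3 histone peaks and 6.29 to 6.54 at the chromosome 13 histone peaks. In the progenitor list it was 6.84 to 7.33 on chromosome 3 and 6.79 to 7.76 on chromosome 13. Non-histone peaks nearby showed the same: within 1 Mb of the chromosome 3 group the median was 8.83 over 114 Early-B peaks and 6.97 over 97 progenitor peaks. Near the chromosome 13 groups it was 6.30 to 6.31 for Early-B peaks and 6.92 to 6.93 for progenitor peaks. Over all Early-B peaks of a chromosome, the median was highest on chromosome 19 (7.51), then on 3 (6.71) and 8 (6.66), and was 6.41 on 13. In the progenitor list the chromosome medians were 6.82 to 6.89. Along chromosome 3, Early-B medians per 5 Mb were 6.29 to 6.55 from the start of the peaks to 5 Mb before the histone group, 8.26 and 7.99 on its sides, and 6.92 to 7.79 beyond 5 Mb after it. The part of this background in the high Early-B pileup of chromosome 3 was not tested, beyond the ratio of fold given above.

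**Figure D4:**
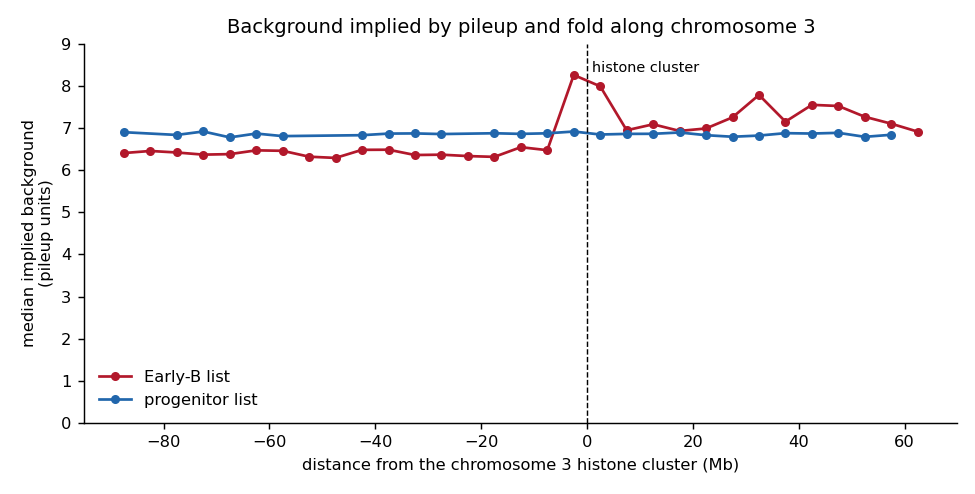
Median implied background of all peaks (vertical axis, pileup units) in bins of 5 Mb along chromosome 3, by distance in Mb from the histone group, for the Early-B list (red) and the progenitor list (blue), in bins with at least 20 peaks. The Early-B line is at 8.26 and 7.99 beside the histone group and the progenitor line stays between 6.78 and 6.92.

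Histone peaks were longer in Early-B cells on chromosome 3 and mostly shorter on chromosome 13. The widest peak was longer in the Early-B list for 20 of the 64 members in both lists (31.2%), against 66% of all protein-coding genes in both lists. With only peaks of a fold of at least 10 it was longer for 8 of 8 members, but no chromosome 13 member is left at that fold in Early-B cells. By group the count was 10 of 10 on chromosome 3. On chromosome 13 it was 3 of 17 in the first group, 3 of 5 in the second, 4 of 29 in the third, and 0 of 2 for H2bc1 and H2ac1. Taking only peaks that held the same members in both lists, 5 of 5 on chromosome 3 were longer in Early-B cells, with ratios of 1.01 to 1.36 and a median of 1.19. Of the 21 on chromosome 13, 6 were longer in Early-B cells, with ratios of 0.590 to 2.499 and a median of 0.909. These 6 include the weak peak inside the H2bc6 span, of 2903 bp in Early-B cells against 1235 bp in progenitors.

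Other genes of the same regions showed the same split. Within 5 Mb of the chromosome 3 group, 80 of 94 other genes in both lists had a longer widest peak in Early-B cells (85.1%), against 75.2% of the genes on chromosome 3 as a whole. Within 5 Mb of the chromosome 13 groups, 14 of 41 did (34.1%), against 63.2% on chromosome 13 as a whole. Without the 1 neighbour that had a histone peak in its own window, the share on chromosome 13 was 14 of 40 (35.0%). By chromosome, the highest shares were 77.4% on chromosome 19, 75.2% on 3 and 72.6% on 8, and their relation to the background was not tested. Whether the histone genes differ from their neighbours in this was not tested.

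**Figure D5:**
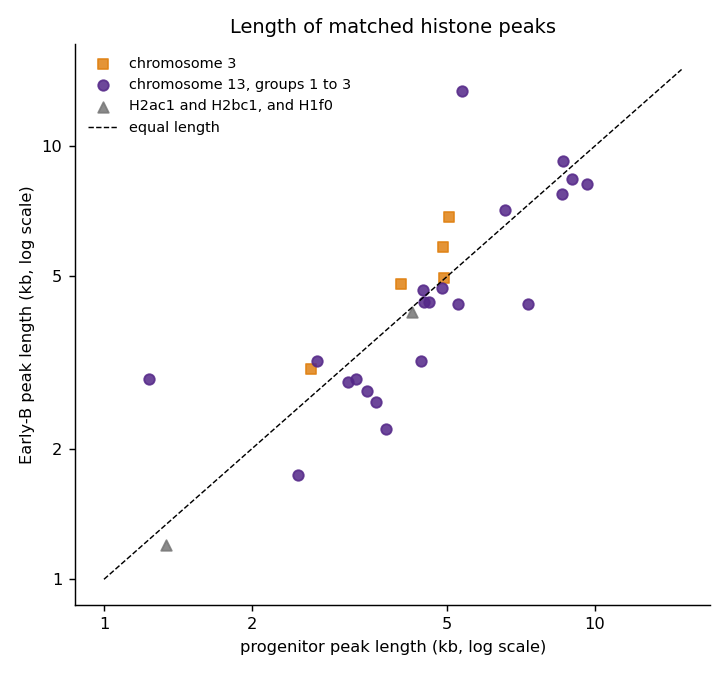
Length of the Early-B peak (vertical axis, kb, log scale) against the progenitor peak (horizontal axis, kb, log scale) for peaks that hold the same histone genes in both lists, with equal length dashed. All 5 chromosome 3 peaks are above the line, and 15 of 21 peaks of the chromosome 13 groups are below it. The chromosome 13 peaks above it include the weak one inside the H2bc6 span.

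Single members differed in where peaks began and ended. The largest length ratio was at H4c9, H2ac11 and H2bc11, covered by a peak of 13368 bp with a pileup of 38.31 in Early-B cells, against 5349 bp with a pileup of 95.18 in progenitors, a ratio of 2.499. The Early-B peak runs on past the genes over a stretch where the progenitor list has separate peaks, 1 of them 2973 bp long. H4c2 was at the other end, with an Early-B peak of 1403 bp and a progenitor peak of 8716 bp that also covers H4c1, H3c1 and H1f1, a ratio of 0.161. H4c12 had 2728 bp in Early-B cells, against 8709 bp in a progenitor peak that it shares with H2ac15 and H2bc15, a ratio of 0.313. In Early-B cells H2ac15 and H2bc15 had a peak of their own, of 3680 bp. H2ac6 and H2bc4, with the same members in both lists, had 4307 bp in Early-B cells, against 7294 bp in progenitors. H4c11 had 2222 bp in Early-B cells, against 3748 bp in progenitors.

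The core histone families looked alike in rank. Median percentiles were 74.8 for H2A, 74.8 for H2B, 75.3 for H3 and 73.2 for H4 in the Early-B list. In the progenitor list they were 74.7 for H2A, 74.1 for H2B, 76.6 for H3 and 72.0 for H4. Many H2A and H2B genes share peaks, and so share these values. A longer Early-B peak was counted for 6 of 17 H2A, 5 of 16 H2B, 4 of 12 H3 and 4 of 12 H4 genes, and for 1 of 7 H1 genes in both lists. The chromosome 3 group supplied 4 of the 6 H2A genes, 2 of the 5 H2B genes, 3 of the 4 H3 genes and 1 of the 4 H4 genes.

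The H1 genes varied in presence, with 7 of 10 in both lists, 2 in Early-B alone and 1 in neither. H1f1 to H1f5 encode the replication-dependent linker histones that bind DNA between nucleosomes. H1f2 had the highest pileup of the histone peaks on chromosome 13 in the Early-B list, 62.92 over 4369 bp, against 115.65 over 4586 bp in the progenitor list. H1f5 had 62.23 over 4229 bp in Early-B cells, against 121.33 in progenitors over 6473 bp, where the peak also covers H3c11. H1f4 had 58.93 over 4637 bp in Early-B cells, against 131.2 over 4459 bp in progenitors, and was the H1 gene with a longer Early-B peak. These 3 stood between percentile 79.0 and 80.0 of the Early-B list and between 75.5 and 78.3 of the progenitor list. H1f3 had a pileup of 48.32 over 2905 bp in Early-B cells, against 101.77 over 3254 bp in progenitors. H1f1 had 42.96 over 5841 bp in Early-B cells, against 101.74 over 8716 bp in progenitors, both in peaks shared with H4c1 and H3c1.

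The replacement gene H1f0, known from resting and differentiated cells, had a pileup of 35.51 over 4133 bp in Early-B cells, against 80.79 over 4238 bp in progenitors. H1f10, the other replacement gene, rested on the weakest kind of peak in the Early-B list. That peak, at chr6:87980418-87981429, had a length of 1012 bp, a pileup of 10.0, which is the lowest of the list, a −log10 p of 1.25 and a −log10 q of 0. It covers most of the gene body and stops short of the annotated start. H1f8, the oocyte linker histone, had an Early-B peak at chr6:115945011-115947303, of 2293 bp, with a pileup of 51.1 (percentile 76.6), a fold of 5.59 and a −log10 p of 26.5. This peak begins just after the annotated start, and its implied background of 8.31 is above the 6.29 to 6.54 of the chromosome 13 histone peaks.

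The germ cell members of chromosome 13 ranked low. H2ac1 and H2bc1, testis forms of H2A and H2B that start back to back, shared a peak of 1201 bp in Early-B cells, against 1338 bp in progenitors. In Early-B cells its pileup was 20.89, at percentile 50.2, and its −log10 p 7.14, against a pileup of 68.78, at percentile 68.5, and a −log10 p of 51.6 in progenitors. This was the lowest pileup at any member in the progenitor list, taking each member's highest peak, and the lowest after H1f10 in the Early-B list. H1f6, the testis linker histone, was counted in both lists only through the peak of its neighbour H4c3, of 1744 bp in Early-B cells and 2480 bp in progenitors, which does not reach the H1f6 start.

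Genes that act on histone messages and proteins were marked in both states and ranked above the histone genes. Of 28 machinery genes listed, which cover NPAT, HINFP, SLBP, the U7 particle, 3′ end cleavage and the cell cycle regulators, 27 were matched and 27 had a peak in both lists, against 61% of all genes. A longer Early-B peak was counted for 18 (66.7%), close to the 66% of all genes. Their median percentile was 90.5 for Early-B cells and 90.2 for progenitors. Ncbp2 and Ncbp1, the cap-binding pair, had the highest Early-B pileups of that list, 173.61 and 172.81, against 221.98 and 220.68 in progenitors. Npat stood at 160.79 in Early-B cells, against 213.84 in progenitors, and Hinfp at 90.96, against 167.25. All 23 histone chaperone genes were also in both lists, against 61% of all genes, with a longer Early-B peak for 14 (60.9%), against 66% of all genes. They were led in Early-B pileup by Hjurp, the CENP-A chaperone, with 464.92 in Early-B cells, against 741.77 in progenitors, and by Anp32e, the H2A.Z chaperone, with 268.33, against 218.23.

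Of 10 genes for replacement variants outside the members, 8 had a peak in both lists (80%), against 61% of all genes. H3f3a, which encodes H3.3, had 193.48 in Early-B cells, against 254.84 in progenitors, and H2aj had 165.2, against 204.6. Macroh2a2 had a peak in the Early-B list alone, with a pileup of 21.33 and a −log10 p of 6.87, and H3f3c had none. A longer Early-B peak was counted for 3 of the 8 (37.5%), against 66% of all genes.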

How the data were processed

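H3K4me3 ChIP-seq of Early-B cells and Ebf1-/- progenitors was analysed from 1 deposited peak list per group. The group of each list was read from its name, which matches the sample titles. The submitters' processing notes name the aligner Bowtie (1.1.2), the caller MACS (1.4.3) and, as builds, mm10 and GRCh38, without saying what each was used for. Pileup is the signal, or read coverage, that the authors deposited, and the fold is the authors' ratio of that signal to a background. The deposited −log10 p and −log10 q columns have damaged names and were recognised by their place and range. Per the file headers the columns are those of broad peaks. Pooling of replicates is not stated in the labels. The lists are permissive: q is above 0.05 for 33.2% of Early-B and 33.4% of progenitor peaks.

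Peaks overlapping a gene span plus 1 kb by at least 1 bp were counted with Python 3.11.15 and pandas 2.3.3, on RefSeq gene coordinates of GRCm38.p6, the assembly that mm10 names. For each gene the widest peak, the highest pileup and its percentile within the list were taken. The counting step was tested on simulated data, for the lists in which a gene had a peak and for peak length only. Peaks shared by several genes, as at most histone genes, and percentiles were not tested. Promoters were the RefSeq entries on that build. Values are descriptions, since 1 list per group allows no test. The members and gene lists were chosen with earlier results of these data known. Values are given for every member in 1 list alone, the highest and lowest by pileup in each list, the most changed by length ratio, every H1 gene, and in each gene list those in 1 peak list alone and the 2 highest in Early-B pileup. Npat, Hinfp and the other members given with values were chosen after their values were seen. Alternatives were other windows and thresholds, equal list lengths, summed lengths and other member rules. The microRNA and Ago2 libraries were left out, since they do not measure this mark.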

Additional observations from a re-analysis of the deposited data

How the results depend on the processing

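Of 90 alternative values, 73 stayed within 1.5 times the reported one and 17 did not. Peaks with a fold of at least 10 left 8 members in both lists, 0 in Early-B alone and 51 in progenitors alone, and all 8 had a longer Early-B peak, where 20 of 64 did among peaks as deposited, since that fold leaves chromosome 3 members alone. At that fold 41.0% of all protein-coding genes were in both lists, 1.51% in Early-B alone and 5.57% in progenitors alone. The median percentile within the remaining peaks was then 28.0 for Early-B cells and 15.7 for progenitors. Where −log10 p had to reach 10, Early-B alone held 1 member and progenitors alone 2, and the percentiles were 37.3 for Early-B cells and 42.2 for progenitors, since weak peaks leave the ranking. For all protein-coding genes, counts at that p and percentiles at either threshold were not computed. The 2 members in Early-B alone became 1 at a q of at most 0.01 and with equal list lengths, and 0 without the replacement and germ cell genes or with a peak over the start site. The last setting, and those on the chromosome 3 ratio, were chosen after seeing the data. Requiring 50% of the gene span to be covered put 1 member in progenitors alone. Counting genes that share peaks once gave 35 in both lists, of which 11 were longer in Early-B cells. Matching older symbols through synonyms added H4f16, H2bu2, H2aw and H4bc24, all in both lists. No paired analysis was possible because each group had 1 peak list and the lists carry no replicate columns. Depth limits every value, since the files give no read counts.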
